A study of Mus musculus with 42 samples.

Results

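The genes described here are the mouse components of the TGF-beta and BMP superfamily: ligands, their latency proteins and antagonists, their receptors, and the Id genes that BMP signalling is known to induce. Members were the rows of the deposited count table whose Ensembl identifier carries one of the family's symbols (Tgfb, Tgfbr, Bmp, Bmpr, Acvr, Inha, Inhb, Gdf, Fst, Fstl, Nog, Grem, Chrd, Ltbp and Id). The rule goes by name and holds no measured value, but earlier results of these data were known when the family was chosen. The rule found 58 genes of 53465 in the table. They comprised 20 BMP and GDF ligands, 8 TGF-beta and activin or inhibin subunits, 9 antagonists and follistatin-family genes, 4 latent TGF-beta binding proteins, the procollagen protease gene Bmp1, 7 type I receptors, 5 type II receptors and co-receptors, and 4 Id genes.

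The study concerned mice with a deletion of Ski, which encodes a nuclear co-repressor of SMAD-driven transcription, in thymic epithelial cells (TECs). From each subset 200 sorted cells were amplified with a full-length cDNA kit and sequenced. Cortical TECs (cTECs) were sorted as Epcam+CD45-UEA-Ly51+, and medullary TECs (mTECs) as Epcam+CD45- cells that bound the lectin UEA and were low for Ly51, split by surface MHC class II into mTEClo and mTEChi. Of 42 libraries, 40 with at least 100000 counts were kept. The groups were Control (5 cTEC, 4 mTEClo and 4 mTEChi libraries), KO, the TEC-specific Ski deletion (7 of each subset), and a second control genotype labelled Ski flox Control, written here as SkiFlox (2 of each subset). No source used here names the Cre line that drove the deletion, the animals' age and strain, or how many animals stood behind the libraries, so the p-values measure the spread between libraries.

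TGF-beta, activin and BMP ligands are secreted dimers that bring together type II and type I receptor kinases at the cell surface, and the type I kinase phosphorylates SMAD transcription factors. TGF-beta is secreted in a latent complex that can include an Ltbp protein, while BMPs are sequestered by antagonists such as gremlin, noggin and chordin. In the thymus TGF-beta signalling is known to limit mTEC numbers, BMP4 from supporting cells acts on TECs and on Foxn1, and SKI binds SMADs and restrains their target genes.

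The kept libraries held 3217251 to 7068077 counts each, and a library had counts for 11084 to 21447 genes. The median number of genes with a count was 14436.5 in cTEC, 16993 in mTEClo and 19040 in mTEChi libraries. The summed level of 8 cTEC markers, as CPM (counts scaled by library size), had a median of 5785 in cTEC libraries, 1157 in mTEClo and 1469 in mTEChi. The 7 mTEChi markers, Aire among them, summed to a median of 2227 CPM in mTEChi, 1118 in mTEClo and 1291 in cTEC. They thus did not set mTEClo apart from cTEC. The 7 markers listed for mTEClo went against that label over all libraries: their median was 353.5 CPM in mTEClo and 541.6 in mTEChi. By genotype they followed the label in KO, with medians of 781.6 CPM in mTEClo and 541.6 in mTEChi. They went against it in Control (466.8 and 700.1 CPM) and SkiFlox (268.8 and 400.3 CPM). Thymocyte markers were present in all subsets despite the CD45- gate, with medians of 2020 CPM in cTEC, 1391 in mTEClo and 552 in mTEChi for the sum of 8 genes. For 8 myeloid and dendritic markers the medians were 1275, 1727 and 1843 CPM in the same order. For 8 mesenchymal markers they were 157.7, 122.8 and 116.5 CPM, with a highest value of 6336 CPM in cTEC KO. The part of these cells in the levels of members was not tested. The targeted gene itself, Ski, had counts in 18 of 21 KO libraries. In mTEClo Ski was at 25.1, 44.5, 21.3 and 7.83 CPM in Control and at 16.9, 9.61, 1.87, 1.22, 6.04, 9.42 and 0.523 CPM in KO, a mean difference of -2.02 on the log2(CPM + 1) scale (exact permutation test, two-sided p = 0.0242, adjusted over the 3 subsets 0.0727). In cTEC the difference was -0.78 (exact permutation p = 0.482, adjusted 0.482), with KO libraries from 0 to 42.2 CPM, and in mTEChi it was -1.68 (exact permutation p = 0.103, adjusted 0.155). Ski in SkiFlox libraries was at 2.70 and 4.35 CPM in cTEC, 31.6 and 32.5 in mTEClo, and 4.58 and 8.75 in mTEChi. In cTEC and mTEChi these values lay within the range of the KO libraries. Reads over the whole gene were counted, so transcripts that retain undeleted exons also count, and a library labelled KO is called so only by its label. Libraries with earlier library numbers (19 kept) and later ones (21 kept, all SkiFlox libraries among them) stood apart in expression. No label names that split, and the boundary was set once correlations between the libraries had been looked at. How many calls each set alone kept is given with the counts of members. The markers listed for mTEClo had medians of 1214 CPM in mTEClo and 785.8 in mTEChi in the earlier set. In the later set these were 285.1 and 447 CPM.

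The promoters of 4 members on which the results turn are printed here from 250 bases before to 50 bases after the annotated start. They are the receptor gene Tgfbr2 (chr9:116175314-116175613), the ligand gene Gdf15 (chr8:70632407-70632706), the antagonist gene Grem1 (chr2:113758599-113758898) and Id2 (chr12:25096043-25096342). The sequences are from RefSeq on GRCm38.p6, all on the minus strand and printed 5′ to 3′ of the gene. Capitals mark GGCGCC, a GC-rich palindrome that BMP-activated SMADs are known to bind.
Tgfbr2: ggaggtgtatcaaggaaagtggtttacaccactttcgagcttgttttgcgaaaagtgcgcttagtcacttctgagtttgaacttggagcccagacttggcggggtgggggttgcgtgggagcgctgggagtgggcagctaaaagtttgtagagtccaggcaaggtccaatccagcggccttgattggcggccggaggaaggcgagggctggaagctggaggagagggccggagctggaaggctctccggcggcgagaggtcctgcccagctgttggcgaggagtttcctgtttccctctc
Gdf15: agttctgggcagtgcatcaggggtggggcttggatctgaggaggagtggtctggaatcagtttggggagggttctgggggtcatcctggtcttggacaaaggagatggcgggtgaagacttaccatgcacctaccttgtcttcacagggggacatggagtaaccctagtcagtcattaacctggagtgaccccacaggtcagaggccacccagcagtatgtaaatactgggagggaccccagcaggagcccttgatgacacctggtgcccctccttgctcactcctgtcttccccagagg
Grem1: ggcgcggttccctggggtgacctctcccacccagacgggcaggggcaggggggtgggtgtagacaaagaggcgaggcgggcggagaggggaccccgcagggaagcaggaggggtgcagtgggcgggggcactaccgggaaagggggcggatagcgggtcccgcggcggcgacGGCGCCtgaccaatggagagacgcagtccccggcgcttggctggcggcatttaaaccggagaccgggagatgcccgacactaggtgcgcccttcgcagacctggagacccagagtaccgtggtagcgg
Id2: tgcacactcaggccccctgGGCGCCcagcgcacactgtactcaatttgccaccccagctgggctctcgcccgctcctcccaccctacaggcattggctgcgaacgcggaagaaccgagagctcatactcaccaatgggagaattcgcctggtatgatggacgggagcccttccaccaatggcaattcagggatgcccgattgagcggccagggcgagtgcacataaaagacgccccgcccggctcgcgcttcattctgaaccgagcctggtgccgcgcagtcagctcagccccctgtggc
One GGCGCC stood in the Grem1 window and one in the Id2 window, and none in those of Tgfbr2 and Gdf15. A second window is annotated for Gdf15 and is not printed. Among the members, 43 of 58 had a window in the table. GGCGCC, which reads the same on both strands, was in 12 of 53 member windows (22.6%), against 3898 of all 32851 windows (11.9%). The other palindrome searched, GTCTAGAC, to which SMAD3 and SMAD4 bind, was in 0 of the 53 windows and in 70 of all windows (0.213%). These are matches of letters and not binding sites. The GC content of the 4 printed windows was 59% for Tgfbr2, 57% for Gdf15, 70.7% for Grem1 and 63.3% for Id2.

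Most of the family was sparse at this input. Of the 58 members, 3 (Id2, Id3 and Tgfb1) had counts in all 40 libraries, 23 in at least 30 libraries, 15 in fewer than 10, and Gdf1 in none. All exon bases of Gdf1 overlap Cers1, and how reads in such overlaps were counted is not known. Other members overlap a neighbour over part of their exons, namely Fstl3 (47.3% with Prss57), Bmp5 (46.7% with Gm26903) and Gdf5 (40.3% with Gm15557 on the opposite strand), and their counts cannot be assigned with certainty because the library kit does not mark strand. Per kilobase of exon, which allows genes to be compared, mean levels over the 40 libraries were highest for Id2 at 453 CPM per kb, followed by Id3 at 66.6, Id1 at 22.8, Gdf15 at 15.5 and Gdf3 at 8.59 CPM per kb. Among receptors the type I genes Tgfbr1, Bmpr1a and Acvrl1 came first at 6.60, 5.13 and 5.09 CPM per kb, and Tgfbr2 stood at 3.24. Among the TGF-beta ligands Tgfb2 was at 3.26 and Tgfb1 at 2.54 CPM per kb, while the BMP ligands Bmp7 and Bmp2 were at 5.01 and 4.88. Id2 alone made up a median of 77.9% of all member CPM in cTEC, 56.6% in mTEClo and 49.4% in mTEChi. The BMP antagonist noggin (Nog) had counts in 2 libraries only, both mTEChi KO, and it and 9 further members (Bmp5, Bmp8b, Bmp10, Bmp15, Gdf1, Gdf2, Gdf5, Gdf7 and Inhbc), each with counts in 7 libraries or fewer, did not pass the filter on low counts.

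**Figure D1:**
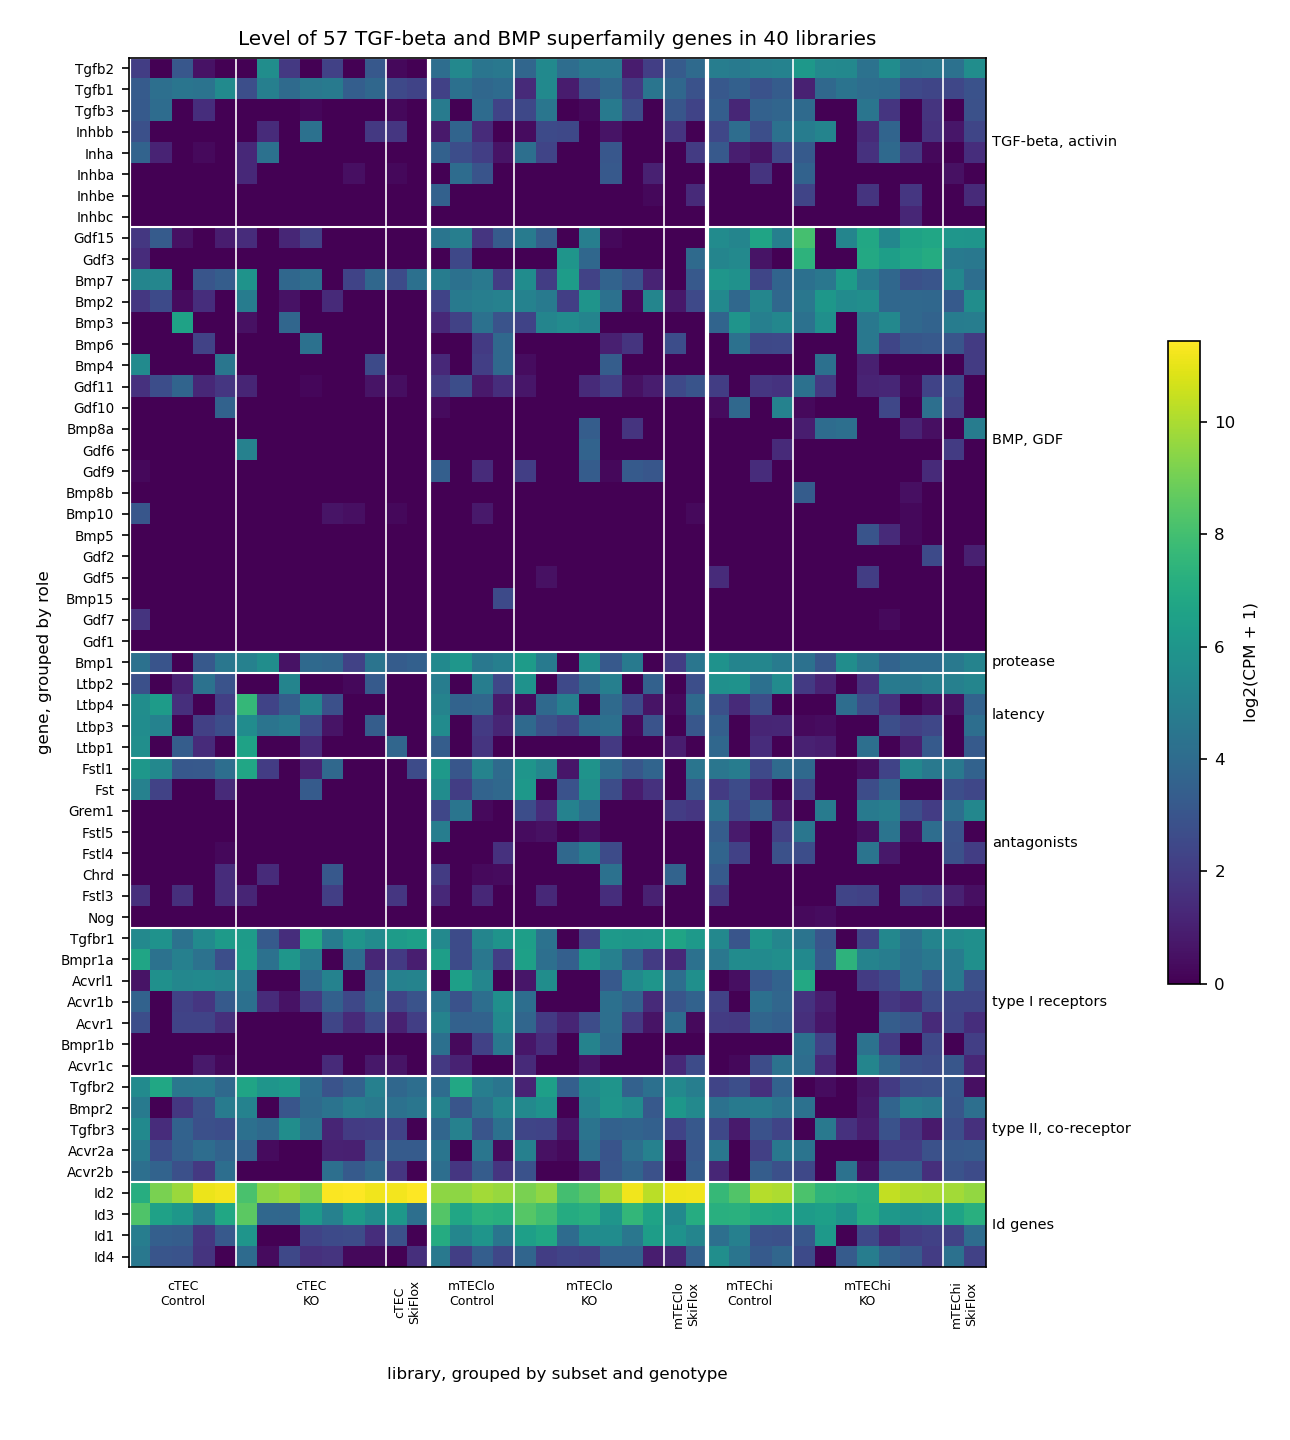
Level of 57 of the 58 members, as log2(CPM + 1) by colour, in each of the 40 kept libraries (columns, grouped by subset and genotype; rows grouped by role). Id2 was the brightest row in every subset, the rows Grem1, Fstl4 and Fstl5 were at or near 0 across cTEC, and Tgfbr2 was dimmer in mTEChi. The rows marked antagonists also hold the follistatin-family genes.

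Tgfbr2, which encodes the type II receptor that binds TGF-beta directly, was lower in mTEChi than in cTEC. In cTEC the gene was at 43.1, 110.8, 22.1, 22.9 and 13.8 CPM in Control and at 101.2, 61.1, 68.9, 15.7, 6.51, 10.8 and 30.2 CPM in KO. In mTEChi it was at 4.11, 5.65, 2.02 and 11.1 CPM in Control and at 0, 0.297, 0, 0.518, 2.87, 5.70 and 6.22 CPM in KO. Every mTEChi library of a genotype was below every cTEC library of the same genotype. The mTEClo libraries overlapped with cTEC, at 15.7, 114.4, 28.9 and 20.6 CPM in Control and from 1.23 to 87.5 CPM in KO. SkiFlox libraries were at 13.0 and 16.8 CPM in cTEC, 40.5 and 28.3 in mTEClo, and 7.92 and 0.398 in mTEChi. In KO the mTEChi to cTEC difference was -4.21 on the log2 scale (SE 0.98, edgeR adjusted p = 0.00736), whereas in Control it was -2.89 (SE 1.19, adjusted p = 0.164) and missed the threshold. The mean of both genotypes, a contrast added after the data were seen, gave -3.55 (SE 0.80, adjusted p = 0.00234). Against mTEClo the mean difference of -3.41 (SE 0.80) had an adjusted p of 0.0575. The KO call held without any single library (-4.71 to -3.79, largest adjusted p 0.0165) and in the earlier set alone (-8.01, adjusted p = 0.0211), but in the later set alone the value was -1.72 with an adjusted p of 0.302, and with only the 2 groups compared in the fit the call was lost (adjusted p = 0.0624). Thymocytes also express Tgfbr2. In the earlier set the summed median of their markers was 2133 CPM in cTEC, 164.7 in mTEClo and 74.2 in mTEChi. In the later set it was 1945, 1665 and 838 CPM. Tgfbr2 itself had medians of 61.1, 29.2 and 0.41 CPM in the earlier set and of 13.8, 28.3 and 5.70 in the later. The part of thymocytes in the result was not tested. In these bulk libraries fewer cells of a type and less RNA per cell cannot be told apart.

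Of the other receptor genes, only 2 of low level passed between subsets in the main edgeR fit. The type I receptor gene Acvr1 missed the threshold there for the mean of mTEClo against cTEC (2.49, SE 1.02, adjusted p = 0.0926). DESeq2, voom and edgeR with the library set as a covariate called it (adjusted p = 0.0157, 0.00982 and 0.033). Neither the earlier nor the later set alone did (edgeR adjusted p = 0.117 and 0.284). Tgfbr1, the type I partner of Tgfbr2, had medians of 50.1 CPM in cTEC, 58.4 in mTEClo and 34.4 in mTEChi and passed no comparison between subsets. The co-receptor gene Tgfbr3 had medians of 5.76, 10.3 and 2.55 CPM in the same order, and Bmpr1a, the main BMP type I receptor, of 18.5, 17.3 and 33.7 CPM. Bmpr2, which pairs with it, had medians of 18.6, 36.79 and 17.99 CPM. The 2 called were the BMP type I receptor gene Bmpr1b and the nodal and activin receptor gene Acvr1c. Bmpr1b had no count in any of the 14 cTEC libraries, was found in all 4 mTEClo Control libraries at 17.9, 0.226, 3.59 and 22.7 CPM, and was at 0 in all 4 mTEChi Control libraries. In KO it was in 4 of 7 mTEClo libraries (up to 33.8 CPM) and in 5 of 7 mTEChi libraries (up to 19.2 CPM), and it was at least 83.9-fold higher in mTEClo (adjusted p = 0.0349) and at least 78.6-fold higher in mTEChi (adjusted p = 0.0215) than in cTEC. These bounds set the group at 0 to 3 counts over all its libraries, and the mTEClo call was lost without cTEC KO replicate 3, 4, 6 or 7 or mTEClo KO replicate 4 (adjusted p up to 0.06). Acvr1c was higher in mTEChi than in cTEC by 5.03 in KO (SE 1.75, adjusted p = 0.0482), a call that 11 of the 14 fits with a library left out did not keep (adjusted p up to 0.0832).

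Several ligand genes were higher in medullary than in cortical libraries. Gdf15, a distant family member known as a stress-induced ligand of the brainstem receptor GFRAL, was at 45.2, 35.7, 101.5 and 29.5 CPM in mTEChi Control and at 269.9, 0, 35.8, 113.3, 38.2, 96.6 and 109.2 CPM in mTEChi KO. In cTEC it stayed at 0 to 8.63 CPM in Control and at 1.74, 0, 1.38, 3.54, 0, 0 and 0 CPM in KO. All mTEChi Control libraries and 6 of 7 mTEChi KO libraries lay above every cTEC library of the same genotype. In mTEClo it was at 2.39 to 28.9 CPM in Control and 0 to 28.9 in KO. The mTEChi to cTEC difference was 6.57 in KO (SE 1.55, adjusted p = 0.00834), 4.37 in Control (SE 1.68, adjusted p = 0.142) and 5.47 for the mean (SE 1.18, adjusted p = 0.0017). In the later set alone, where all 3 cTEC KO libraries were at 0, Gdf15 was at least 404-fold higher in mTEChi KO (adjusted p = 0.00248), and in the earlier set alone the difference was 5.98 (adjusted p = 0.134). Between the medullary subsets the difference in KO was 3.35 (adjusted p = 0.175) in the whole fit and 9.92 (SE 1.32, adjusted p = 0.00427) in the later set. Over later libraries of all genotypes the median was 0 CPM in mTEClo and 63.1 in mTEChi. The highest later mTEClo library was at 8.61 CPM, so the size of that difference rests on values at or near 0.

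Gdf3, a ligand of the nodal branch, was in 1 of 14 cTEC libraries, at 1.76 CPM. In mTEChi it was at 36.4, 40.9, 0.506 and 0 CPM in Control, at 165.2, 0, 0, 120.4, 85.1, 108.0 and 131.5 CPM in KO, while the SkiFlox libraries had 25.4 and 23.1 CPM. In mTEClo it was found in 1 of 4 Control and 2 of 7 KO libraries, where it reached 61.5 CPM, and in 1 of 2 SkiFlox libraries. Libraries of 1 group thus ranged from none to abundant Gdf3. In KO it was at least 1003-fold higher in mTEChi than in cTEC (adjusted p = 0.00963) and at least 122.5-fold higher in mTEClo (adjusted p = 0.0418). The mTEChi call was kept without any single library, whereas the mTEClo call was lost when any one of the 7 cTEC KO libraries, or mTEClo KO replicate 3 or 4, was left out (adjusted p up to 0.0909). In the earlier set alone neither passed (adjusted p = 0.146 for mTEChi and 0.262 for mTEClo). In the later set alone the mTEChi call passed (adjusted p = 0.0226), and no cTEC KO or mTEClo KO library had a Gdf3 count.

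Tgfb2, one of the 3 TGF-beta isoforms, was at 27.9, 24.6, 30.9 and 32.8 CPM in mTEChi Control and at 16.0, 39.8, 20.8 and 23.2 CPM in mTEClo Control. In cTEC Control it was at 3.17, 0, 7.58, 0.463 and 0 CPM, below every medullary Control library. The differences in Control were 3.67 for mTEChi (SE 1.41, adjusted p = 0.142) and 3.45 for mTEClo (SE 1.40, adjusted p = 0.192), and in KO, where one cTEC library reached 47.5 CPM, 2.06 (SE 1.09, adjusted p = 0.192) and 0.96 (SE 1.06, adjusted p = 0.689). The mean of both genotypes passed for mTEChi at 2.87 (SE 0.89, adjusted p = 0.0182), in the later set alone too (adjusted p = 0.0157) but not in the earlier (adjusted p = 0.32). Bmp2 encodes a BMP ligand. In cTEC Control it was at 2.64, 4.98, 0.276, 1.85 and 0 CPM, in mTEChi Control at 42.2, 13.5, 37.2 and 13.3 CPM, and in mTEClo Control at 3.93, 24.6, 28.9 and 32.1 CPM. Its mean difference from cTEC was 3.06 in mTEClo (SE 0.97, adjusted p = 0.0279) and 3.35 in mTEChi (SE 0.98, adjusted p = 0.0133). In the earlier set alone neither passed (adjusted p = 0.37 and 0.164), in the later set both did (0.0372 and 0.0469), while within single genotypes it did not pass, for example at 2.96 in KO for mTEChi (SE 1.22, adjusted p = 0.0844). Tgfb3 had 0.142 CPM in 1 of 7 cTEC KO libraries and none in the other 6. In KO it was higher than in cTEC by 7.33 in mTEClo (SE 1.94, adjusted p = 0.0239; 4.62, 21.4, 0, 0.174, 24.7, 5.23 and 0 CPM) and by 6.86 in mTEChi (SE 1.90, adjusted p = 0.019; 14.7, 0, 0, 20.9, 2.43, 0 and 2.33 CPM). Both calls were lost with limma voom (adjusted p = 0.0765 and 0.0694), in the earlier set alone (0.284 and 0.196) and in the later set alone (0.161 and 0.218). In cTEC Control, however, Tgfb3 was at 8.45, 15.5, 0, 1.85 and 0 CPM, and the mTEChi difference in Control was not called. Tgfb1, the isoform most widely expressed in immune tissue, passed no comparison between subsets, and its medians were 15.7 CPM in cTEC, 12.9 in mTEClo and 7.94 in mTEChi.

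BMP4, the ligand best known for acting on TECs, was nearly absent from the libraries. Bmp4 had counts in 11 of 40, reached 43.3 CPM in one cTEC Control library, and had a median of 0 in each subset. It was at 0 in all 4 mTEChi Control libraries and at 17.8 and 1.04 CPM in 2 of 7 mTEChi KO libraries. Inhba, the activin A subunit, was in 10 of 40 libraries, at most at 15.4 CPM in mTEClo Control, and follistatin (Fst), its antagonist, was in 23, with medians of 0 CPM in cTEC, 6.44 in mTEClo and 3.01 in mTEChi. Of the remaining ligands, the oocyte factor Gdf9 was higher in mTEClo KO than in cTEC KO (at least 46.9-fold, adjusted p = 0.0347), a call lost without cTEC KO replicate 3, 4, 6 or 7 (adjusted p up to 0.0603). Gdf10 (at least 36.0-fold, adjusted p = 0.0471), Bmp8a (at least 57.1-fold, adjusted p = 0.0396) and the activin E subunit Inhbe (at least 14.7-fold, adjusted p = 0.0441) were higher in mTEChi KO. Each had counts in 3 to 5 of the 7 mTEChi KO libraries, and each of these calls was lost in 9 or 10 of the 14 fits with one library left out, among them each fit that left out one of the 7 cTEC KO libraries (adjusted p up to 0.0889).

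Of 8 antagonist and follistatin-family genes tested, 4 were higher in mTEChi KO and 2 in mTEClo KO than in cTEC KO, where 12.9% and 5.19% of all genes were higher. Grem1, which encodes the BMP-binding protein gremlin 1, had no count in any of the 14 cTEC libraries. It was at 4.42, 20.6, 0.239 and 0 CPM in mTEClo Control, at 5.54, 1.75, 32.6, 15.5, 0, 0 and 0 CPM in mTEClo KO, and at 19.4, 4.09, 9.36 and 0.781 CPM in mTEChi Control. In mTEChi KO it was at 0, 26.4, 0, 24.9, 28.5, 5.70 and 3.11 CPM, and at 16.7 and 38.6 CPM in mTEChi SkiFlox. In KO it was at least 91.0-fold higher in mTEClo (adjusted p = 0.0206) and at least 145.5-fold higher in mTEChi (adjusted p = 0.0102) than in cTEC, and both calls held without any single library. The mTEClo call was lost with limma voom (adjusted p = 0.0585) and in the earlier set alone (adjusted p = 0.2), and the mTEChi call in the earlier set alone (adjusted p = 0.131). In Control the bounds were 62.5-fold (adjusted p = 0.102) and 83.4-fold (adjusted p = 0.0748), short of the threshold. For the mean of both genotypes the mTEChi bound was 225.6-fold (adjusted p = 0.000879), and this call held in every alternative tried, the earlier set alone (adjusted p = 0.0366) and the later set alone (adjusted p = 0.0119) included. In the later set no mTEClo KO library and no cTEC library had a Grem1 count, so the mTEClo difference in KO there could not be estimated. The follistatin-like genes Fstl4 and Fstl5 were at 0 in all cTEC KO libraries and higher in mTEChi KO (at least 43.5-fold, adjusted p = 0.029, and at least 94.9-fold, adjusted p = 0.0208); the first was lost without cTEC KO or mTEChi KO replicate 4 (adjusted p up to 0.0581). Fstl4 was also at least 75.1-fold higher in mTEClo KO (adjusted p = 0.0369), lost when any one of the 7 cTEC KO libraries or mTEClo KO replicate 4 was left out (adjusted p up to 0.0636). Fstl1, a widely secreted mesenchymal glycoprotein, was not called between subsets, and its medians were 6.48 CPM in cTEC, 15.4 in mTEClo and 14.1 in mTEChi. Of the latency genes, Ltbp1 to Ltbp4, none passed between subsets, and Ltbp4 had means of 25.8 ± 34.4 CPM in cTEC Control (SD, n = 5) and 3.22 ± 2.91 in mTEChi Control (SD, n = 4).

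**Figure D2:**
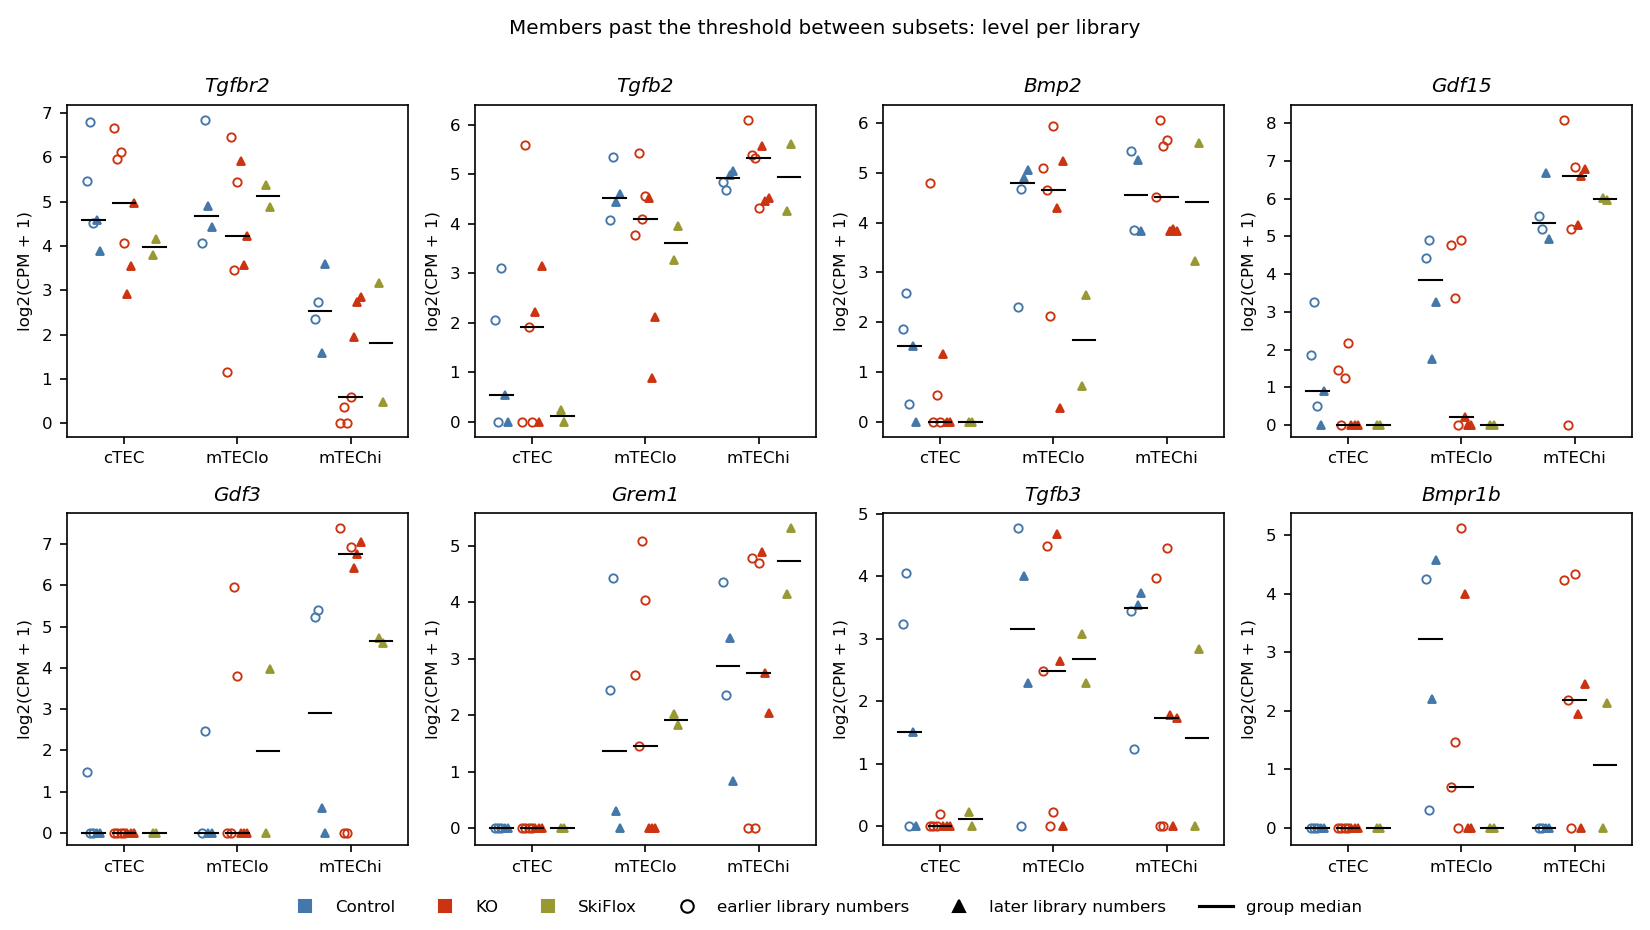
Level per library, as log2(CPM + 1), of 8 members called between subsets, by subset (x axis) and genotype (colour); open circles are libraries with earlier numbers, triangles those with later numbers, and bars are group medians. Tgfbr2 was lower in mTEChi, where its Control libraries lay between 2.02 and 11.1 CPM, and Grem1 and Bmpr1b were at 0 in every cTEC library.

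Over all 48 members that passed the filter on low counts, 12 were higher and 1 lower in mTEChi than in cTEC among KO libraries, where 12.9% of all 23040 genes tested were higher and 1.82% lower. In mTEClo KO 6 of 48 were higher and none lower, against 5.19% and 0.49% of all genes. The median log2 difference was 1.09 over members and 0.28 over all genes for mTEChi, and 0.95 over members (0.91 with members at 0 in one group set at their bound) and 0.25 over all genes for mTEClo. A member at 0 in one group passed the filter only through the other, so these counts do not describe the whole family. The number called depended on the libraries: for mTEClo it was 3 without cTEC KO replicate 3 or 4 or mTEClo KO replicate 4 and 2 without cTEC KO replicate 6 or 7, and for mTEChi it was 8 without cTEC KO replicate 6 or 7. Of the 6 and 13 calls in mTEClo and mTEChi KO, limma voom kept 1 and 9, the earlier set alone 0 and 1, and the later set alone 0 and 3. In all, 0 and 1 members passed in the earlier set and 0 and 5 in the later. Fitted on the 2 groups compared only, 0 and 1 passed, but there 0 of the 6 and 2 of the 13 had a value. For the mean of both genotypes, 11 members were higher and 1 lower in mTEChi (all genes 21.1% and 3.31%), and 10 were higher and none lower in mTEClo (all genes 14.2% and 2.25%). In mTEClo that list was Grem1, Bmpr1b, Gdf9, Tgfb3, Bmp2, Fstl4, Fstl5, Gdf3, Inhba and Inhbe. Without mTEClo Control replicate 1, the adjusted p of Fstl5 was 1 and that of Tgfb3 0.0518, and without mTEClo Control replicate 5 that of Fstl4 was 1. Gdf3, Inhba and Inhbe were lost in 6, 8 and 18 of the 23 fits with a library left out. In mTEChi the mean called, among others, Grem1, Gdf15, Gdf3, Gdf10, Fstl4, Fstl5, Acvr1c, Bmp2, Tgfb2 and Tgfb3 as higher, and of those named Gdf10 alone was lost in such a fit (7 of 23, adjusted p up to 0.0753). In Control, with 4 or 5 libraries a group, no member passed for mTEClo or mTEChi against cTEC, where 0.773% and 1.11% of all genes were called in either direction; 8 and 11 members had an unadjusted p under 0.05, as did 17.9% and 21.2% of all genes. DESeq2 called 3 and 6 members and limma voom 2 and 7. The shares of all genes are edgeR's, and none is given here for DESeq2 or voom. Between the medullary subsets no member passed in Control (0% of all genes; 6 members and 7.47% of all genes at unadjusted p under 0.05; DESeq2 and voom 1 each), in KO (0.0174% of all genes; 10 members and 17.5% at that p; DESeq2 2 and voom 4) or for the mean (0.143% of all genes; 9 members and 16.1% at that p; DESeq2 2 and voom 3). The number of genes detected also rose from cTEC to mTEChi, and the median number of members with a count was 24 in cTEC, 32 in mTEClo and 39 in mTEChi. Its part in the result was not tested.

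**Figure D3:**
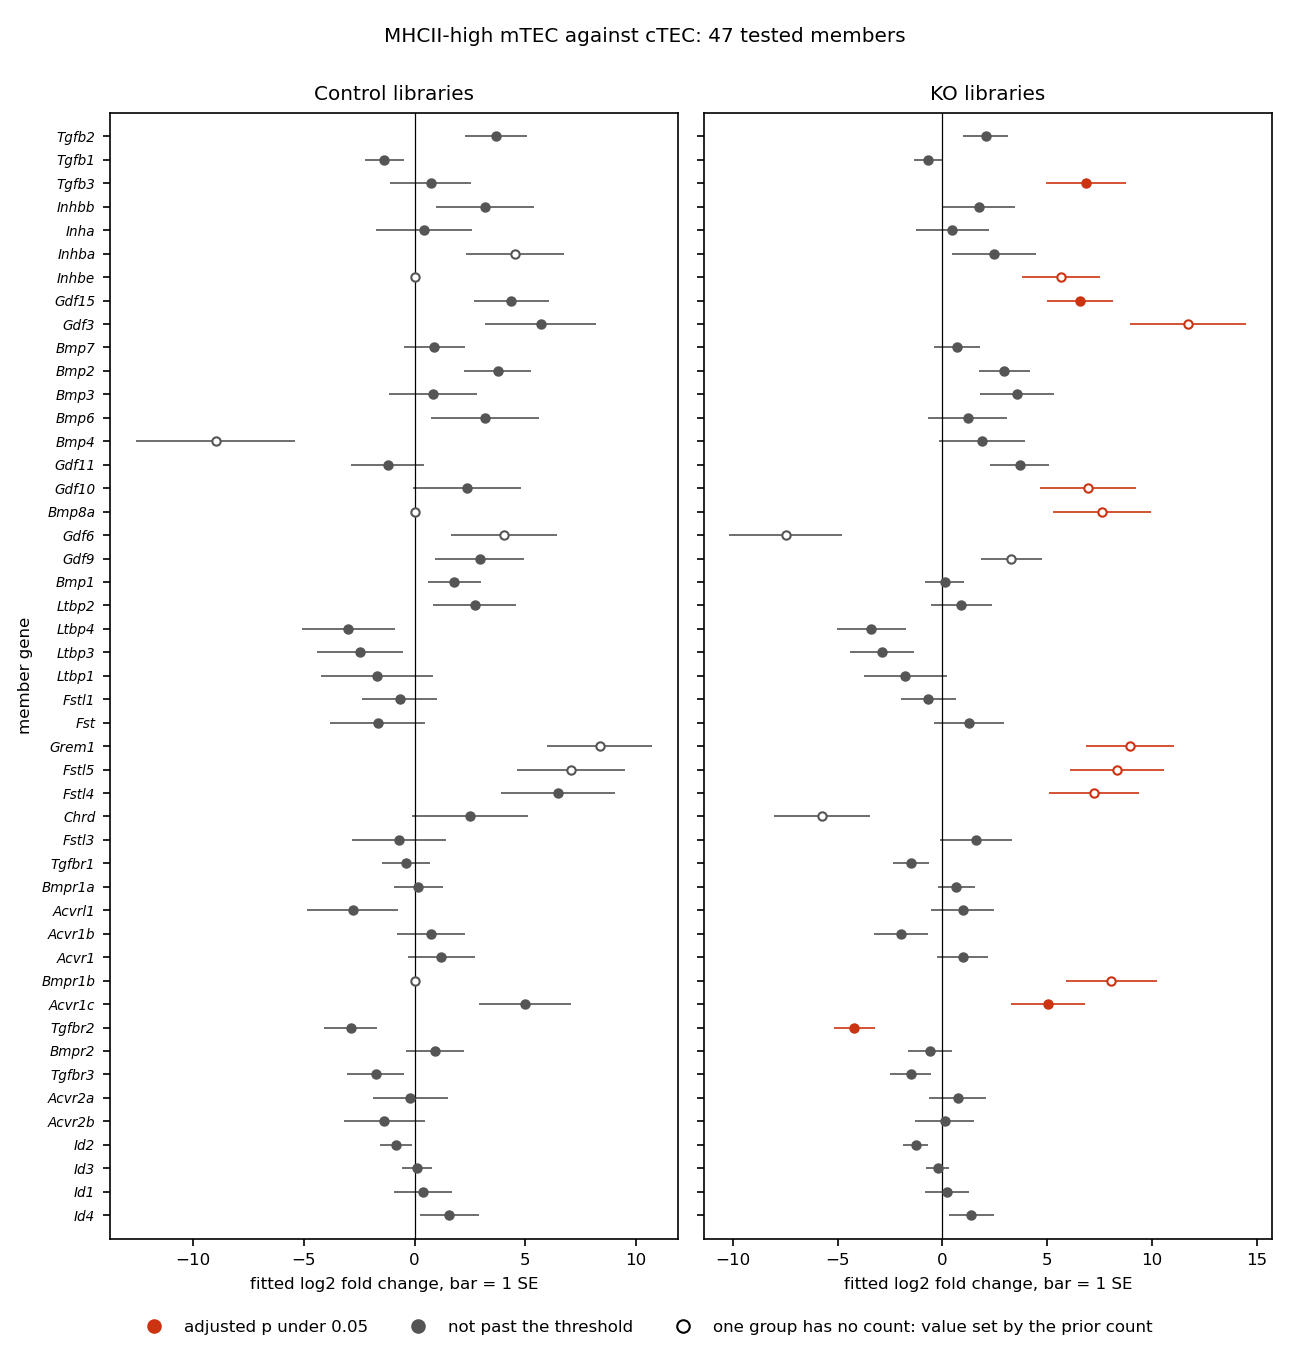
Fitted log2 difference between mTEChi and cTEC, with 1 SE, for 47 of the 48 tested members in Control (left) and KO (right); red points passed an adjusted p under 0.05 and open points had no count in one group, so that their position depends on the prior count. In KO, 11 of the members drawn lay above 0 and Tgfbr2 below 0 past the threshold, and in Control none passed.

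The Id genes encode helix-loop-helix proteins without a DNA-binding region that block other transcription factors, and they are among the best-known targets of BMP signalling. Id2 was the most abundant member in each subset, and its level followed the library set. In cTEC it was at 137 to 838 CPM in the 7 earlier libraries and at 2205 to 2775 CPM in the 7 later ones, with no overlap. In mTEClo the ranges were 262 to 748 and 805 to 2376 CPM, and in mTEChi 139 to 327 and 755 to 1343 CPM, again with no overlap. Within the later set every cTEC library had more Id2 than every mTEChi library. Over all libraries no Id2 difference between subsets passed, the mean for mTEChi against cTEC being -1.06 (SE 0.47, adjusted p = 0.104). With the library set as a covariate, however, Id2 was lower in mTEChi than in cTEC, at -1.2 for the mean (SE 0.26, adjusted p = 0.00141) and at -1.41 in KO (SE 0.32, adjusted p = 0.00529). In the later set alone the mean was lower by 1.18 (SE 0.20, adjusted p = 0.00222), and in the earlier set alone its value was -1.28 (SE 0.39, adjusted p = 0.0722). For mTEClo against cTEC the later set gave a mean of -1.16 (SE 0.20, adjusted p = 0.00153), which the earlier set, at 0.12 (SE 0.37, adjusted p = 0.9999), did not share. What separates the 2 sets of libraries is not given in the labels, and its part in the Id2 levels was not tested.

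Over Control and KO together, Id1 had its highest median in mTEClo, 46.2 CPM. It was at 130.2, 36.6, 62.4 and 20.9 CPM in mTEClo Control, at 85.6, 111.6, 15.2, 45.1, 46.2, 22.0 and 80.9 CPM in KO, while the SkiFlox libraries had 55.9 and 35.7 CPM. In cTEC the median was 5.12 CPM, with one KO library at 60.5 CPM, and in mTEChi 6.25 CPM, with one KO library at 68.9 CPM. In KO 6 of 7 mTEChi libraries were below all mTEClo libraries. The mean difference between mTEClo and cTEC was 2.42 (SE 0.87, adjusted p = 0.0524), just short of the threshold; with the library set as a covariate it was 2.76 (SE 0.84, adjusted p = 0.0222), in the later set alone 3.23 (SE 0.87, adjusted p = 0.0268), and with DESeq2 and voom the adjusted p was 0.0188 and 0.00119. In the earlier set alone it was 2.18 (SE 1.35, adjusted p = 0.432). Between mTEChi and mTEClo the mean difference was -2.12 (SE 0.91, adjusted p = 0.225), and in the later set -3.44 (SE 0.88, adjusted p = 0.0411). Id3 was present in every library, with medians of 67.3 CPM in cTEC, 142 in mTEClo and 97.7 in mTEChi, and no comparison of it between subsets passed by edgeR, while voom called the mean of mTEClo against cTEC (1.11, SE 0.37, adjusted p = 0.0415; edgeR 0.257). Id4 was low, with medians of 2.15, 4.44 and 8.82 CPM.

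**Figure D4:**
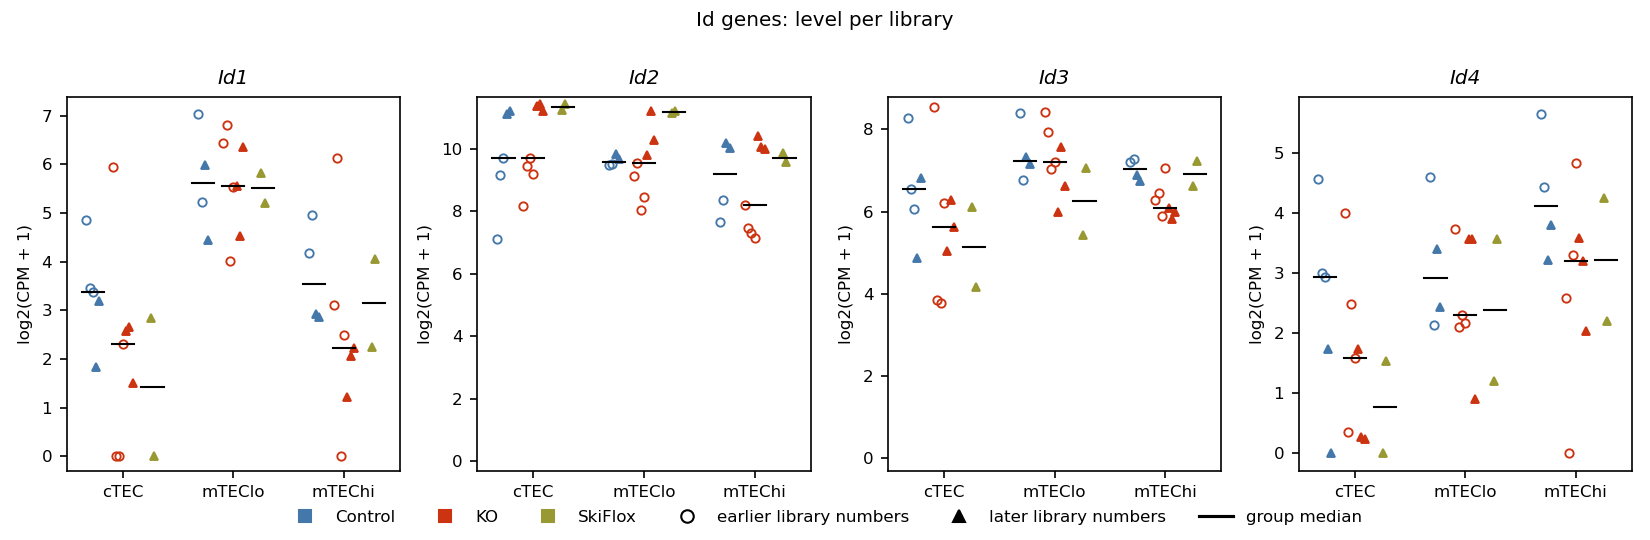
Level per library, as log2(CPM + 1), of the 4 Id genes by subset and genotype; open circles are libraries with earlier numbers, triangles those with later numbers, and bars are group medians. The later Id2 points lay above the earlier ones in each subset, and the median of Id1 was highest in mTEClo, where all libraries were at 15.2 CPM or more.

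The comparison that the deletion of Ski implies, KO against Control, called no member in any subset. Of 48 members tested, 0 passed in cTEC, 0 in mTEClo and 0 in mTEChi by edgeR's quasi-likelihood test, and of all genes 0% passed in each subset. At an unadjusted p under 0.05 there were 4, 4 and 5 members, and 2443, 1639 and 1586 of all genes, or 10.6%, 7.11% and 6.88%. limma voom also called none. DESeq2 called Gdf3 and Tgfb3 lower in cTEC KO (adjusted p = 8.5e-07 and 0.0142) and Bmp4 higher in mTEChi KO (adjusted p = 9.2e-05). For DESeq2 no share of all genes is given here. Gdf3 was in 1 of 5 cTEC Control libraries and Bmp4 in 2 of 7 mTEChi KO libraries, each at 0 in the whole group compared, and edgeR gave Tgfb3 in cTEC a difference of -6.70 (SE 1.91, adjusted p = 0.302). Gdf11, a ligand close to myostatin, was the 1 member of which no KO library overlapped with Control, where 0.152% of all genes in cTEC, 0.317% in mTEClo and 0.399% in mTEChi did not overlap. In cTEC it was at 2.11, 5.56, 11.7, 1.39 and 2.48 CPM in Control and at 1.31, 0, 0, 0.142, 0, 0 and 0.503 CPM in KO (-3.93, SE 1.48, adjusted p = 0.336).

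The members described next are those of smallest p among members with a group median of at least 10 CPM. In cTEC the activin type II receptor gene Acvr2a was at 26.4, 5.56, 10.6, 16.0 and 11.3 CPM in Control and at 11.3, 0.278, 0, 0, 1.04, 0.982 and 6.03 CPM in KO. Thus 5 of 7 KO libraries were below all Control libraries, and the difference was -2.30 (SE 1.48, adjusted p = 0.793). Acvrl1, a type I receptor best known from endothelium, was at 33.7 ± 19.5 CPM in cTEC Control (SD, n = 5) and 11.2 ± 12.7 in KO (SD, n = 7), and Acvr2b at 10.7 ± 6.24 and 5.59 ± 7.39. In mTEClo the BMP and activin type I receptor gene Acvr1 was at 33.9, 10.6, 11 and 42.3 CPM in Control and at 12.6, 2.84, 1.25, 5.22, 16.95, 2.72 and 0.523 CPM in KO, with 5 of 7 KO libraries below all Control libraries (-2.02, SE 1.40, adjusted p = 0.944). Acvr1b, the activin type I receptor, was at 23.6 ± 19.2 CPM in mTEClo Control (SD, n = 4) and at 6.65 ± 8.09 in KO (SD, n = 7), with an adjusted p of 1. Bmp1, which cleaves procollagens and chordin, was at 39.7 ± 17.8 and 25.8 ± 27.8 CPM in the same groups, and Tgfbr3 at 17.3 ± 10.3 and 8.76 ± 6.41.

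In mTEChi the Id gene Id3 was at 145.9, 154.4, 117.1 and 106.8 CPM in Control and at 76.8, 86.1, 58.8, 132.3, 67.3, 56.0 and 62.2 CPM in KO. All but 1 of the 7 KO libraries were below every Control library, and the SkiFlox libraries were at 97.7 and 148.1 CPM. The difference was -0.77 (SE 0.63, adjusted p = 1). Ltbp2, a matrix protein of the latency family, was at 42.4 ± 17.2 CPM in mTEChi Control (SD, n = 4) and 11.7 ± 12.9 in KO (SD, n = 7; -1.85, SE 1.66), and Tgfbr1 at 35.7 ± 21.6 and 17.5 ± 14.8. Gdf3 had 5 of 7 KO libraries above all Control libraries and the other 2 at 0 (2.16, SE 2.17, adjusted p = 1). Tgfbr2 was at 0 to 6.22 CPM in mTEChi KO against 2.02 to 11.1 in Control (-1.35, SE 0.997, adjusted p = 1). None of these passed, and SEs of 0.63 to 2.17 on the log2 scale show how wide a difference could go uncalled with 4 to 7 libraries of 200 cells. The common biological coefficient of variation estimated over the genes tested was 1.40.

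The KO effect was also compared between subsets. In the interaction tests 0 of 48 members passed in each of the 3 pairs of subsets (0% of all genes each), with 3, 5 and 7 members at an unadjusted p under 0.05, against 7.38%, 7.26% and 6.17% of all genes. DESeq2 made 4 calls over the 3 pairs, all of them for Gdf3 or Bmp4, and its share of all genes is not given here. For Tgfbr2 the KO effect in mTEChi minus that in cTEC was -1.33 (SE 1.38, adjusted p = 0.9999), so the calls of Tgfbr2 in KO and not in Control do not show that the subset difference depended on genotype. The subset comparisons in KO and Control used different libraries, but KO had 7 libraries a subset and Control 4 or 5.

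**Figure D5:**
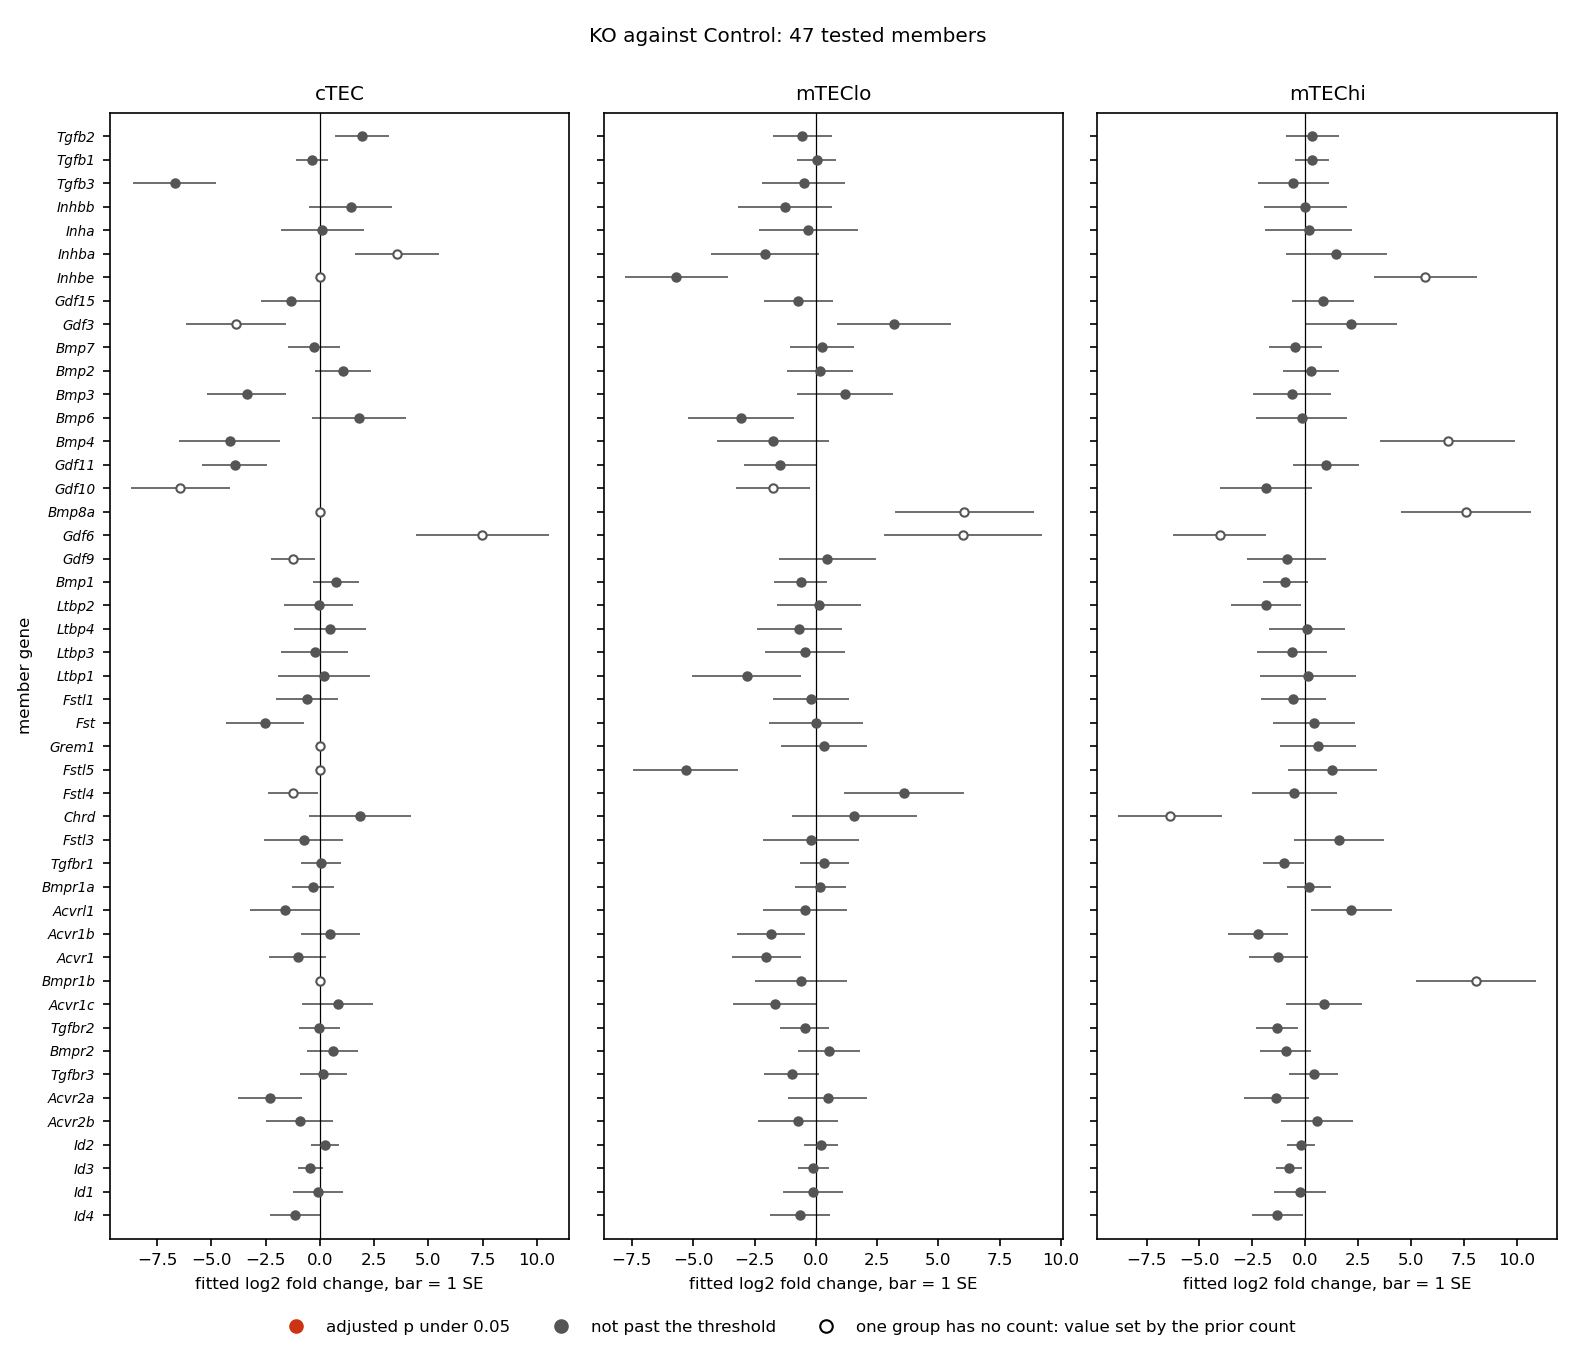
Fitted log2 difference between KO and Control, with 1 SE, for 47 of the 48 tested members in cTEC, mTEClo and mTEChi; open points had no count in one group, so that their position depends on the prior count. No member passed an adjusted p under 0.05 in any subset.

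The second control genotype was compared with both others. SkiFlox against Control called no member in any subset (0% of all genes in each), with 7, 2 and 2 members at an unadjusted p under 0.05 in cTEC, mTEClo and mTEChi, against 4.73%, 5.53% and 1.89% of all genes. KO against SkiFlox called none (0% of all genes in each), with 6, 2 and 1 members at that p, against 4.93%, 6.12% and 3.15% of all genes. DESeq2 made 12 and 13 calls over the 3 subsets, for 10 and 11 members. The share of all genes that DESeq2 called is not given here, and the 0% above is edgeR's. In cTEC Bmp3, Bmp4, Bmp6, Ltbp2, Ltbp3 and Ltbp4 were called lower in SkiFlox in both contrasts and had no count in either SkiFlox library. Absence was not particular to SkiFlox: over all 14 cTEC libraries, Bmp3, Bmp4 and Bmp6 had counts in only 3, 3 and 2. Ltbp2, Ltbp3 and Ltbp4 had counts in 7, 10 and 9 of them. Id2 in mTEClo was at 2244 and 2373 CPM in SkiFlox and at 715.6, 726.2, 914.6 and 805.1 CPM in Control, without overlap (1.55, SE 0.90, adjusted p = 0.689). In the later set alone, which held both SkiFlox libraries and 2 of the 4 Control libraries, the difference was 1.44 (SE 0.32, adjusted p = 0.0333). In the same fit the ligand gene Bmp3 was lower in SkiFlox (adjusted p = 0.0481), at 0 in both libraries against 18.2 and 6.52 CPM in the later Control libraries. Bmpr1a in cTEC was at 2.88 and 0.945 CPM in SkiFlox, below the 5 Control libraries at 104.6, 18.6, 30.6, 19.0 and 5.67 CPM, and Tgfb1 was at 4.68 and 3.97 CPM there against 8.63 to 43.6 in Control, and neither passed by edgeR (adjusted p = 0.856 for Bmpr1a). DESeq2 called Bmpr1a lower in cTEC SkiFlox than in Control (adjusted p = 0.0301) and than in KO (adjusted p = 0.0324). With 2 libraries a group, all of them from the later set, genotype and library set cannot be told apart in the pooled values.

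Genes of the pathway outside the family were counted on 5 lists: SMADs and their regulators, TGF-beta activation, TGF-beta response, BMP response, and surface modulators. In KO against Control no gene of any list passed in any subset, where 0% of all genes did. Between subsets the TGF-beta response list (8 genes tested) and the activation list (9 tested) had no called gene in any comparison. Junb, an immediate target of TGF-beta and of many other signals, was at 889.4 ± 199.6 CPM in mTEChi Control (SD, n = 4) and 832.8 ± 138.1 in mTEChi KO (SD, n = 7). Cdkn1a, the cell-cycle inhibitor p21 that TGF-beta induces, was at 531.9 ± 293.0 and 406.3 ± 134.8 CPM. Of 6 BMP response genes, 2 were higher in mTEChi KO than in cTEC KO, where 12.9% of all genes were higher: Dlx5 (adjusted p = 0.00791) and Atoh8 by 5.99 (SE 1.80, adjusted p = 0.0281). Dlx5 encodes a homeodomain factor and had no count in any cTEC library, and in mTEChi KO it ranged from 0 to 123.5 CPM; Atoh8 was at 17.3 ± 16.0 CPM in mTEChi KO and at 0.26 ± 0.689 in cTEC KO (SD, n = 7 each). The same 2 genes were higher in mTEClo KO, where 5.19% of all genes were, with adjusted p of 0.0383 and 0.0494. Of 16 SMADs and regulators tested, none passed within a genotype. For the mean, 1 was higher in mTEChi than in cTEC, where 21.1% of all genes were higher. It was Smad1, which carries the BMP signal (1.16, SE 0.32, edgeR adjusted p = 0.0087). Smad1 was at 231.2 ± 86.6 CPM in mTEChi Control (SD, n = 4) and 94.2 ± 45.7 in cTEC Control (SD, n = 5). Smad9, another SMAD of the BMP branch, was the 1 called for the mean of mTEClo against cTEC (edgeR adjusted p = 0.0283), where 14.2% of all genes were higher. It was at most at 5.54 CPM in any mTEClo library of Control or KO. Of the 6 BMP response genes, Dlx5, Atoh8 and the homeobox gene Msx2 were higher for the mean of mTEChi against cTEC, where 21.1% of all genes were. Msx2 (edgeR adjusted p = 0.024) had 0 counts in the cTEC libraries and at most 21.4 CPM in mTEChi, reached in a Control library. Of 14 surface modulators, the BMP antagonist genes Chrdl1 and Chrdl2 and the nodal inhibitor gene Lefty2 were higher in mTEChi KO (adjusted p = 0.0433, 0.0382 and 0.0459; 12.9% of all genes were higher and 1.82% lower), and Eng, the co-receptor endoglin, was lower by 5.26 (SE 1.59, adjusted p = 0.0281), at 18.2 ± 18.9 CPM in cTEC KO and 0.443 ± 0.756 in mTEChi KO (SD, n = 7 each). Eng is also an endothelial gene, and the summed level of 8 endothelial markers had medians of 90.5 CPM in cTEC and 49.9 in mTEChi, with 1 of the 8 at 0 throughout mTEChi; its part was not tested. Chrdl1 was also higher in mTEClo KO than in cTEC KO (edgeR adjusted p = 0.0198), where 5.19% of all genes were higher. It was at 19.7 ± 25.2 CPM against 0 in all 7 cTEC KO libraries (SD, n = 7). For the mean of mTEChi against cTEC, 3 surface modulators were higher and 1 lower, against 21.1% and 3.31% of all genes. Those called were Chrdl2, Eng, Lefty2 and Nodal.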

How the data were processed

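The deposited values were whole-number read counts per Ensembl gene, made by the authors with HTSeq 0.4.1 on GRCm38, per the submitters' processing notes, which also name Picard 1.134, SAMtools 1.2 and FastQC 0.11.3. No source used here names the aligner, the annotation or the strand setting. The SMART-Seq v4 and Nextera XT libraries carry neither strand nor molecular identifiers, per the labels' protocols. Symbols were taken from GENCODE M21, which matched 53274 identifiers and not 191.

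From these counts, 2 libraries under 100000 counts (mTEClo Control replicate 2 and mTEChi Control replicate 2) were dropped and 40 were fitted together by subset and genotype with edgeR 4.0.16 (R 4.3.3), using TMM scaling, quasi-likelihood tests and Benjamini-Hochberg adjustment over 23040 genes that passed a filter on low counts (filterByExpr with a minimum count of 10 and a minimum total of 15); the threshold was 0.05. CPM are TMM-scaled. A fold against a group without counts is a lower bound from a floor of 3 counts over the group, which covers counting error only. DESeq2 1.42.0 and limma voom 3.58.1 served as alternatives. The shares of all genes called are those of edgeR, and none is given for the alternatives. The contrast of the mean of Control and KO was added after the data were seen, and the split into library sets (library numbers up to 78047 or above), used alone or as a covariate, came from earlier results of these data. Figures were drawn with matplotlib 3.10.9. The model fits were tried on simulated counts, with changes placed only in well-detected genes. That trial does not cover members at 0 in a whole group.

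The members and gene lists were chosen with earlier results of these data known. Named with values were members past the threshold, the 5 of smallest p with a group median of at least 10 CPM where fewer than 5 passed, the 10 most abundant, a fixed short list (Tgfb1, Tgfbr1, Tgfbr2, Bmp4, Bmpr1a, Bmpr2, Inhba, Fst, Id1, Id2, Id3 and Ski), and up to 4 called genes per pathway list. One member (1 of 58) is counted in the totals but is not reported here by name or drawn in the figures.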

Additional observations from a re-analysis of the deposited data

Results flagged for a closer look

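Of 201 groups of 4 to 7 libraries, 29 had a library whose gap to its nearest neighbour exceeded Dixon's critical value. That value flags about 1 in 20 groups of normally distributed values. Where all other libraries were at 0, the gap equals the range and any count is flagged. The 29 can therefore not be set against that rate. Low libraries among detected groups were Acvrl1 in cTEC Control replicate 1 (0.528 CPM, others 36.5 to 51.8), Bmp2 in mTEClo Control replicate 1 (3.93 CPM, others 24.6 to 32.1), Bmpr1a in mTEChi Control replicate 1 (22.4 CPM, others 43.8 to 48.8), Tgfb3 in mTEChi Control replicate 3 (1.36 CPM, others 9.86 to 12.3), Bmpr2 in cTEC KO replicate 2 (0 CPM, others 7.12 to 32.7) and Gdf15 in mTEChi KO replicate 2 (0 CPM, others 35.8 to 269.9).

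The other flags were single high libraries in groups otherwise at or near 0 CPM. Among ligands in cTEC these were Bmp2 in KO replicate 1 (26.6 CPM), Bmp4 in KO replicate 7 (4.86 CPM), Gdf10 in Control replicate 5 (10.98 CPM), Gdf3 in Control replicate 1 (1.76 CPM), Gdf9 in Control replicate 1 (0.176 CPM), Inhba in KO replicate 1 (1.52 CPM), Inhbb in Control replicate 1 (5.98 CPM) and Tgfb3 in KO replicate 4 (0.142 CPM). In mTEClo they were Bmp4 in KO replicate 5 (9.23 CPM), Gdf10 in Control replicate 1 (0.246 CPM), Gdf3 in Control replicate 3 (4.52 CPM), Inhba in KO replicate 5 (8.05 CPM), and Inhbe in Control replicate 1 (10.6 CPM) and KO replicate 7 (0.174 CPM). In mTEChi they were Bmp4 in KO replicate 2 (17.8 CPM), Gdf9 in Control replicate 4 (1.77 CPM) and KO replicate 7 (1.55 CPM), and Inhba in Control replicate 4 (2.28 CPM) and KO replicate 1 (11.3 CPM). Among antagonists and follistatin-family genes they were Fst in cTEC KO replicate 4 (8.64 CPM), Fstl4 in cTEC Control replicate 5 (0.177 CPM) and mTEClo Control replicate 5 (2.09 CPM), and Fstl5 in mTEClo Control replicate 1 (28.2 CPM). The left-out mTEChi Control replicate 2, of 41828 counts in all, held 67 counts of members.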

How the results depend on the processing

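No paired analysis was possible because the labels carry no replicate number and name no shared animal or day; library numbers run in cTEC, mTEClo and mTEChi triples of one genotype, but no label says that a triple shares an animal, and a block by triple was not fitted. Of 132 counts of called members under other settings, 98 were within 1.5 times the value reported and 34 were not; the cause of the changes was not tested. Counts are given for mTEClo against cTEC, mTEChi against cTEC and mTEChi against mTEClo in that order where 3 stand together. No share of all genes is given for these other settings. DESeq2 called 2 members for KO against Control in cTEC and 1 in mTEChi, 3, 6 and 1 between subsets in Control, 2 for mTEChi against mTEClo in KO and 2 for the mean, and made 13 calls for KO against SkiFlox (11 members), 12 for SkiFlox against Control (10 members) and 4 in interactions (2 members). limma voom called 2, 7 and 1 in Control, and 4 and 3 for mTEChi against mTEClo in KO and for the mean. The later set alone gave 2 and 2 in Control against cTEC, 0, 5 and 3 in KO, and for the mean 4 for mTEClo against cTEC and 6 for mTEChi against mTEClo. The earlier set alone gave 0 and 1 in KO, and 0 and 2 for the mean, against cTEC. The library set as a covariate gave 2 for mTEChi against cTEC in Control. Fitting only the groups compared gave 0 and 1 in KO. A filter of 10 CPM in 5 libraries gave 6 for mTEChi against cTEC in KO, and 5, 7 and 1 for the mean, with fewer genes tested. All 42 libraries gave 1 for mTEChi against mTEClo for the mean. With a library left out, counts ranged from 2 to 7 (mTEClo against cTEC, KO), 8 to 12 (mTEChi against cTEC, KO), 7 to 13, 11 to 14 and 0 to 1 for the mean, and stayed at 0 for KO against Control and the other subset comparisons; the SkiFlox comparisons and interactions were not refitted this way. Without mTEClo KO replicate 3, mTEChi against mTEClo for the mean was 1. Signs reversed for KO against Control in cTEC of Id3 without Control replicate 1 (0.27; range with a library left out -1.58 to 0.27), and in the later set alone of Bmp1 (-0.31) and Acvr2b (0.46).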
